A study of Mus musculus with 12 samples.

Results

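Csf1, Il34, Tnfsf11 and Tnfrsf11b are 4 genes by which bone stromal cells steer the formation of osteoclasts and macrophages. They were chosen by name from what is known of their function. On the array, 9 probe sets carried the symbol of 1 of these genes alone. Csf1 had 4 of them, Tnfsf11 and Tnfrsf11b had 2 each and Il34 had 1. The 4 genes belong to 18193 genes measured by such single-symbol probe sets. A gene was tested when a probe set exceeded the array median in 2 or more arrays. Of the 4 genes, Csf1, Il34 and Tnfrsf11b met this, among 12516 genes in all, and Tnfsf11 did not.

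Osteoclasts are the cells that resorb bone, and they form by fusion of precursors of the macrophage lineage. These precursors need signalling through the receptor Csf1r, which binds both CSF1, also called M-CSF, and interleukin 34, the product of Il34. They also need RANKL, the product of Tnfsf11, which stromal cells, osteoblasts, osteocytes and chondrocytes present to the receptor RANK, encoded by Tnfrsf11a. Osteoprotegerin, the product of Tnfrsf11b, is a secreted decoy receptor that binds RANKL and keeps it from RANK.

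The arrays came from JUN inducible mice, in which doxycycline in the drinking water of the mother was used to induce JUN in the pups. Cells of limb bones, skull cap, scapulae, vertebrae and ribs were sorted into 3 osteoprogenitor populations that the labels call SSC, CSP and Thy, and the design text gives 2 days of induction. Each population had 2 arrays labelled JUN and 2 arrays labelled -JUN, which are read as the arm without induction, so there were 6 groups of 2 and 12 arrays. The labels give no age in days, no strain and no promoter for the inducible allele, and they do not say whether the -JUN mice carried that allele, received doxycycline or both. The titles name 5 mice. Mice 4 and 7 were labelled JUN and gave an array of each population, mice 3 and 3b were labelled -JUN and gave CSP and Thy arrays, and mouse 3 or mouse 10 gave each SSC array labelled -JUN. Arrays with the same mouse number are taken as 1 animal, although for mice 3 and 7 only the SSC titles carry a date.

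Jun itself did not follow the labels. Its brighter probe set read 13.18 and 12.13 in SSC labelled JUN, against 12.60 and 12.06 in SSC labelled -JUN (log2 expression). It read 12.92 and 12.82 in CSP labelled JUN, against 13.37 and 13.24 in CSP labelled -JUN, and 13.03 and 12.90 in Thy labelled JUN, against 12.81 and 13.65 in Thy labelled -JUN. Both CSP arrays labelled JUN lay below both labelled -JUN, as they did for the other Jun probe set, and every direction given below for JUN rests on labels that the Jun probe sets do not bear out. Whether these probe sets read an induced transgene is not known from the labels. The 3 arrays of mouse 3 also stood apart in Xist, which is transcribed from the inactive X chromosome, with 12.49 to 13.20 against 6.11 to 7.29 in the other 9 arrays, so this mouse differed in sex. Thy1, the marker behind the name Thy, was at 12.80 to 13.30 in Thy arrays, and at 7.28 to 8.90 in SSC and 8.04 to 9.63 in CSP arrays. The leukocyte gene Ptprc stayed between 5.45 and 6.54 by its brighter probe set and between 3.74 and 5.84 by the other. Neither was above the array median in any array.

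JUN is a subunit of the transcription factor AP-1, and the 250 bases before the start of a member gene are shown because AP-1 binds the letters TGANTCA. RefSeq promoters of the build GRCm38.p6 were at hand for 2 of the 4 genes, Csf1 at chr3:107760470-107760719 and Tnfsf11 at chr14:78308044-78308293, both read on the minus strand. Capitals mark the GC box letters GGGCGG in Csf1 and the TATA core letters TATAA, found on both strands with overlap, in Tnfsf11.
Csf1: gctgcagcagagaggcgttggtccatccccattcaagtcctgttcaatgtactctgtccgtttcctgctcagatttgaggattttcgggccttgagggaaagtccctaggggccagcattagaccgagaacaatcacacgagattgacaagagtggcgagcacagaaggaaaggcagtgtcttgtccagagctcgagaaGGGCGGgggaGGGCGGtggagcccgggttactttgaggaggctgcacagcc
Tnfsf11: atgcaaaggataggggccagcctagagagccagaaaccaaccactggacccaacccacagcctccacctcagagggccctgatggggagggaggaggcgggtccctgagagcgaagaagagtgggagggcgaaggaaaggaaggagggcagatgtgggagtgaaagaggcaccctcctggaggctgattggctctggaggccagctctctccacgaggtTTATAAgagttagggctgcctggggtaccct

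Both strands were searched for 4 motifs in these windows. Neither window held TGANTCA, which 6.75% of the 32851 RefSeq promoter windows of this length hold, nor the cAMP response element TGACGTCA, which 1.55% hold. Csf1 held GGGCGG at 51 and 41 bases before the start, a motif present in 32.7% of the windows, and no TATAA. Tnfsf11 held TATAA at 31 and 30 bases before the start, a motif present in 22.8%, and no GGGCGG. These are matches of letters in 1 window per gene and say nothing of binding there or elsewhere.

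**Figure D1:**
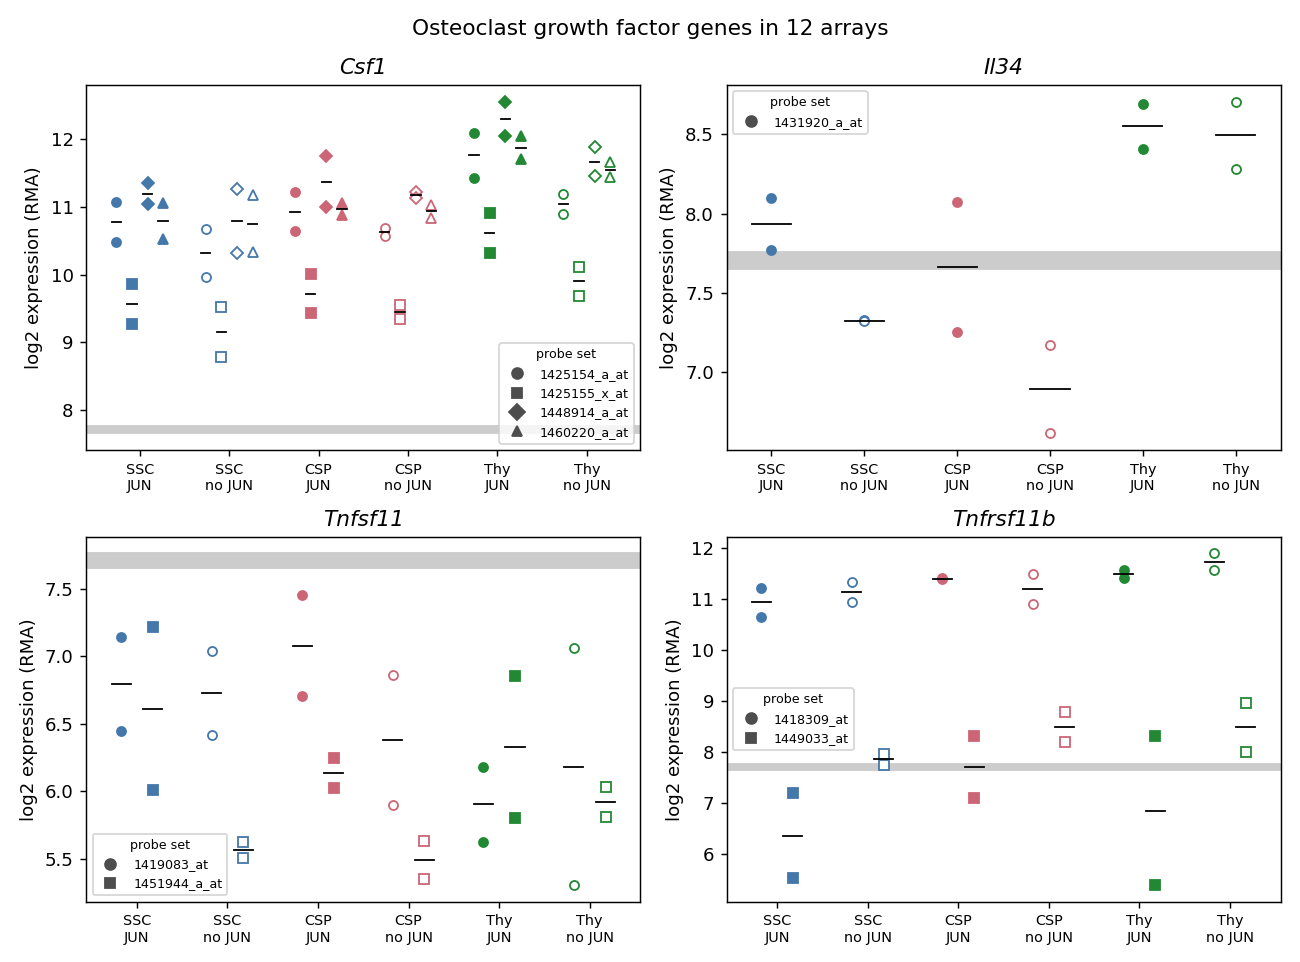
Log2 expression (RMA) of the 9 probe sets of Csf1, Il34, Tnfsf11 and Tnfrsf11b in the 12 arrays. Each point is 1 array, filled for arrays labelled JUN and open for arrays labelled -JUN (no JUN on the axis), short lines are means of 2, and the grey band is the range of the array medians. The highest Csf1 and Il34 values are in Thy arrays, and all Tnfsf11 points lie below the band.

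Csf1, the main growth factor of macrophages and osteoclast precursors, was among the bright genes of every array. Its brightest probe set, 1448914_a_at, lay at or above the 82.1 percentile of each array. In Thy it read 12.56 and 12.05 in arrays labelled JUN, against 11.46 and 11.88 in arrays labelled -JUN. In CSP it read 10.99 and 11.76 in arrays labelled JUN, against 11.22 and 11.13 in arrays labelled -JUN. In SSC it read 11.35 and 11.04 in arrays labelled JUN, against 11.27 and 10.32 in arrays labelled -JUN. The 2 Thy arrays labelled JUN were above all others, and the lowest array was SSC labelled -JUN replicate 3, from mouse 10. Apart from the gap between Thy labelled JUN and Thy labelled -JUN, neighbouring groups in the order of means overlapped.

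The other Csf1 probe sets, at their own brightness, also had their highest values in Thy arrays labelled JUN. Over the 12 arrays 1425154_a_at lay between 9.97 and 12.09, 1425155_x_at between 8.77 and 10.90, and 1460220_a_at between 10.33 and 12.05. Pearson's r between pairs of the 4 probe sets ran from 0.906 to 0.996 over the 12 arrays, which share mice. For each of them, both Thy arrays labelled JUN exceeded both labelled -JUN, as for 17.9% of all genes tested.

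Il34, which encodes the alternative ligand of Csf1r, was near the middle of the brightness range. Its single probe set, 1431920_a_at, exceeded the array median in 7 of 12 arrays. In Thy it read 8.70 and 8.41 in arrays labelled JUN, against 8.28 and 8.71 in arrays labelled -JUN. In SSC it read 8.10 and 7.77 in arrays labelled JUN, against 7.33 and 7.32 in arrays labelled -JUN. In CSP it read 7.25 and 8.08 in arrays labelled JUN, against 7.17 and 6.61 in arrays labelled -JUN. All 4 Thy arrays were above all arrays of the other populations. The lowest group was CSP labelled -JUN, whose arrays did not overlap with those of the next group, SSC labelled -JUN.

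Tnfsf11, which encodes RANKL, was dim throughout. Both of its probe sets lay below the median in 12 of 12 arrays, between the 13.7 and 46.1 percentiles for 1419083_at and between the 15.4 and 42.8 percentiles for 1451944_a_at. In the array with the highest value, CSP labelled JUN replicate 1, 1419083_at read 7.45, and in the lowest, Thy labelled -JUN replicate 1, it read 5.31. The probe set 1451944_a_at read 7.21 in SSC labelled JUN replicate 1 and between 5.35 and 6.85 in the other 11 arrays. The r between the 2 probe sets was 0.111 over the 12 arrays. RMA compresses differences between dim probe sets, so low values here say little about how much RANKL transcript each population held.

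Tnfrsf11b, the gene of osteoprotegerin, was bright by 1 probe set and near the array median by the other. The probe set 1418309_at lay at or above the 85.2 percentile in every array. In Thy it read 11.42 and 11.58 in arrays labelled JUN, against 11.90 and 11.58 in arrays labelled -JUN. In CSP it read 11.41 and 11.40 in arrays labelled JUN, against 10.91 and 11.49 in arrays labelled -JUN. In SSC it read 11.22 and 10.66 in arrays labelled JUN, against 11.35 and 10.96 in arrays labelled -JUN. Its whole range over the 12 arrays was 10.66 to 11.90, the narrowest of the 9 probe sets. The probe set 1449033_at ranged from 5.39 to 8.97 and lay above the array median in 8 of 12 arrays. With an r of 0.215 over the 12 arrays the 2 probe sets did not rank the arrays alike.

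**Figure D2:**
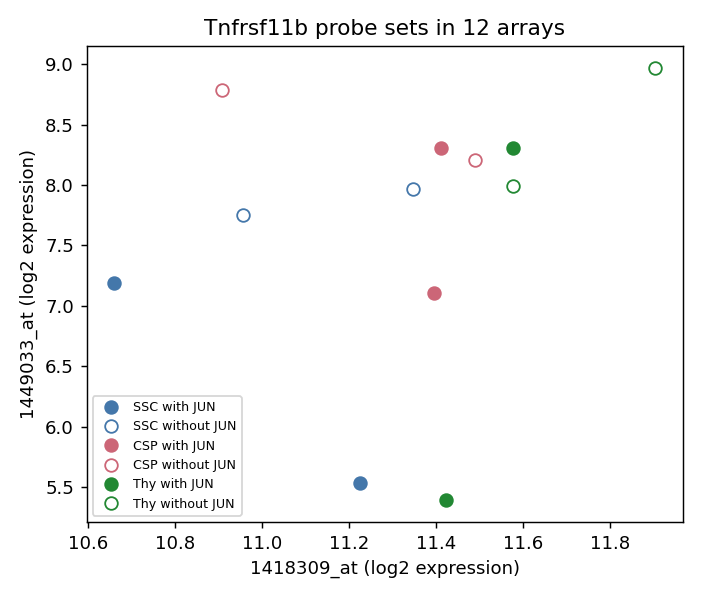
The 2 probe sets of Tnfrsf11b in each of the 12 arrays, 1418309_at on the x axis and 1449033_at on the y axis (log2 expression). Filled points are arrays labelled JUN and open points arrays labelled -JUN; 1418309_at spans 10.66 to 11.90, while 1449033_at falls to 5.54 in SSC and 5.39 in Thy for replicate 1 labelled JUN.

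The clearest difference between the populations was that of Il34, which was lower in CSP than in Thy. It averaged 7.28 ± 0.60 in CSP and 8.52 ± 0.21 in Thy (mean ± SD, n = 4 arrays each). The log2 difference was -1.24 ± 0.25 (SE), with a 95% interval of -1.78 to -0.70, which is a fold of 0.422, and the adjusted p of limma was 0.0373. It was the only 1 of the 3 tested member genes to pass, while 0.991% of all genes tested passed in either direction and 0.903% passed as lower in CSP. Within the mice, CSP minus Thy was -1.11 in mouse 3, -2.09 in mouse 3b, -1.44 in mouse 4 and -0.33 in mouse 7, so the direction held in 4 of 4 mice. With the mouse as a fixed block, the adjusted p was 0.0901 and the call was lost. A random block for the mouse kept the call. Among 17 fits that each left out 1 array or 1 mouse the difference stayed between -1.55 and -0.96, and 4 of them passed, with adjusted p from 0.0169 to 0.339, the highest being without mouse 3 (difference -1.29). In bulk samples fewer cells that make a transcript and less transcript per cell cannot be told apart.

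Markers of several other cell types and labelling controls moved with this difference, and whether they caused any of it was not tested. Of 8 pericyte and smooth muscle genes measured, 5 passed as lower in CSP than in Thy and 0 as higher. Their mean level was 10.28 to 10.50 in CSP arrays and 11.62 to 12.29 in Thy arrays, and each of the 8 exceeded the array median in at least 1 array. Rgs5, a pericyte marker, differed by -2.66 ± 0.27 between CSP and Thy (adjusted p = 0.00132), and Mcam, a surface protein of pericytes and endothelium, by -1.95 ± 0.30 (adjusted p = 0.00863). Of 5 Schwann cell genes, 3 passed as lower in CSP and 0 as higher, with a list mean of 8.87 to 9.14 in CSP arrays and 9.53 to 11.69 in Thy arrays. All 13 chondrocyte genes measured had higher means in CSP, with a median difference of 1.89 and list means of 9.48 to 12.67 in CSP arrays and 8.31 to 9.34 in Thy arrays, and 0 of them passed. The poly-A control probe sets, which read transcripts added during labelling, averaged 9.38 to 11.04 in CSP arrays and 10.63 to 11.52 in Thy arrays. With their mean as a covariate, Il34 differed by -1.10 at an adjusted p of 0.203.

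Between SSC and Thy, all 3 tested member genes had lower values in SSC without overlap of the arrays, and none passed. Arrays did not overlap in this direction for 5.18% of all genes, 0.391% of genes passed and 0.32% passed as lower in SSC. Csf1 averaged 10.995 ± 0.47 in SSC and 11.99 ± 0.46 in Thy (SD, n = 4 each), a difference of -0.99 ± 0.26 (adjusted p = 0.116), with a 95% interval of -1.56 to -0.43. Its probe sets 1425154_a_at and 1425155_x_at differed by -0.85 and -0.90 with some overlap of arrays, and 1460220_a_at by -0.94 without overlap. Il34 averaged 7.63 ± 0.38 in SSC and 8.52 ± 0.21 in Thy, a difference of -0.89 ± 0.25 (adjusted p = 0.130). Tnfrsf11b averaged 11.05 ± 0.31 in SSC and 11.62 ± 0.20 in Thy, a difference of -0.57 ± 0.22 (adjusted p = 0.213). Its second probe set, 1449033_at, differed by -0.56 ± 0.58 with overlap of the arrays.

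Within each of the 3 mice that gave both populations, these genes kept that direction by the probe set that stood for the gene. SSC minus Thy for Csf1 was -0.19 in mouse 3, -1.21 in mouse 4 and -1.01 in mouse 7. For Il34 it was -0.95, -0.59 and -0.63 in the same mice, and for Tnfrsf11b -0.56, -0.20 and -0.92. The difference of Csf1 was thus smallest in mouse 3, the animal that stood apart in Xist, and without that mouse it was -1.26 at an adjusted p of 0.273. Other cell types' markers moved here as well. Of the 8 pericyte and smooth muscle genes, 2 passed as lower in SSC, with list means of 10.63 to 11.01 in SSC arrays and 11.62 to 12.29 in Thy arrays. The 13 chondrocyte genes all had higher means in SSC (median difference 1.34), and the 4 neutrophil genes tested all had lower means (median difference -1.11), with 0 passing in either list. Of 7 endothelial genes tested 1 passed as lower in SSC, with list means of 7.16 to 7.63 in SSC arrays and 7.65 to 8.57 in Thy arrays. The part of these cell types in the values of Csf1, Il34 and Tnfrsf11b was not tested. The poly-A controls differed here too, with 8.08 to 10.54 in SSC arrays and 10.63 to 11.52 in Thy arrays, without overlap. With them as a covariate Il34 differed by -0.51 between SSC and Thy, and Csf1 and Tnfrsf11b stayed lower in SSC and did not pass. Whether the controls' levels caused any of these differences was not tested.

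CSP and Thy differed less in the other genes. Csf1 averaged 11.27 ± 0.34 in CSP and 11.99 ± 0.46 in Thy, a difference of -0.71 ± 0.26 (adjusted p = 0.298), and the arrays overlapped for 3 of its 4 probe sets. Without mouse 4 the difference was -0.43. For 1460220_a_at all CSP arrays lay below all Thy arrays, 10.84 to 11.06 against 11.44 to 12.05. The same separation, lower in CSP, held for 4.29% of all genes tested and, besides this probe set, for Il34. Tnfrsf11b averaged 11.30 ± 0.26 in CSP and 11.62 ± 0.20 in Thy, a difference of -0.32 ± 0.22 (adjusted p = 0.571), which was -0.093 without mouse 3. Its second probe set pointed the other way, at 8.10 ± 0.71 in CSP and 7.67 ± 1.57 in Thy, a difference of 0.44 ± 0.58.

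SSC and CSP were not told apart by any member gene. Of all genes 0.431% passed, and the arrays of 1.86% lay lower in SSC without overlap, a pattern shown by 0 of the 3 tested member genes. Csf1 differed by -0.28 ± 0.26, Il34 by 0.35 ± 0.25 and Tnfrsf11b by -0.25 ± 0.22, with adjusted p of 0.937, 0.911 and 0.922. The 95% intervals were -0.85 to 0.29 for Csf1, -0.19 to 0.89 for Il34 and -0.72 to 0.21 for Tnfrsf11b. They leave room for a change of more than 0.7 on the log2 scale in each gene.

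Tnfsf11, which was not tested over the filtered genes, is given here from a fit over every single-symbol probe set. By 1419083_at it averaged 6.76 ± 0.38 in SSC, 6.73 ± 0.64 in CSP and 6.04 ± 0.77 in Thy (SD, n = 4 each). SSC minus Thy was 0.72 ± 0.40 (adjusted p = 0.398) and CSP minus Thy 0.69 ± 0.40 (adjusted p = 0.627). Without mouse 3 the difference between SSC and Thy was 0.38, and without mouse 4 that between CSP and Thy was 0.31. By 1451944_a_at the averages were 6.09 ± 0.78 in SSC, 5.81 ± 0.40 in CSP and 6.12 ± 0.50 in Thy. The first probe set thus had its lowest mean in Thy. By the second, SSC and Thy were nearly equal, with SSC minus Thy at -0.034 ± 0.29. For both probe sets the arrays of all 3 populations overlapped.

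**Figure D3:**
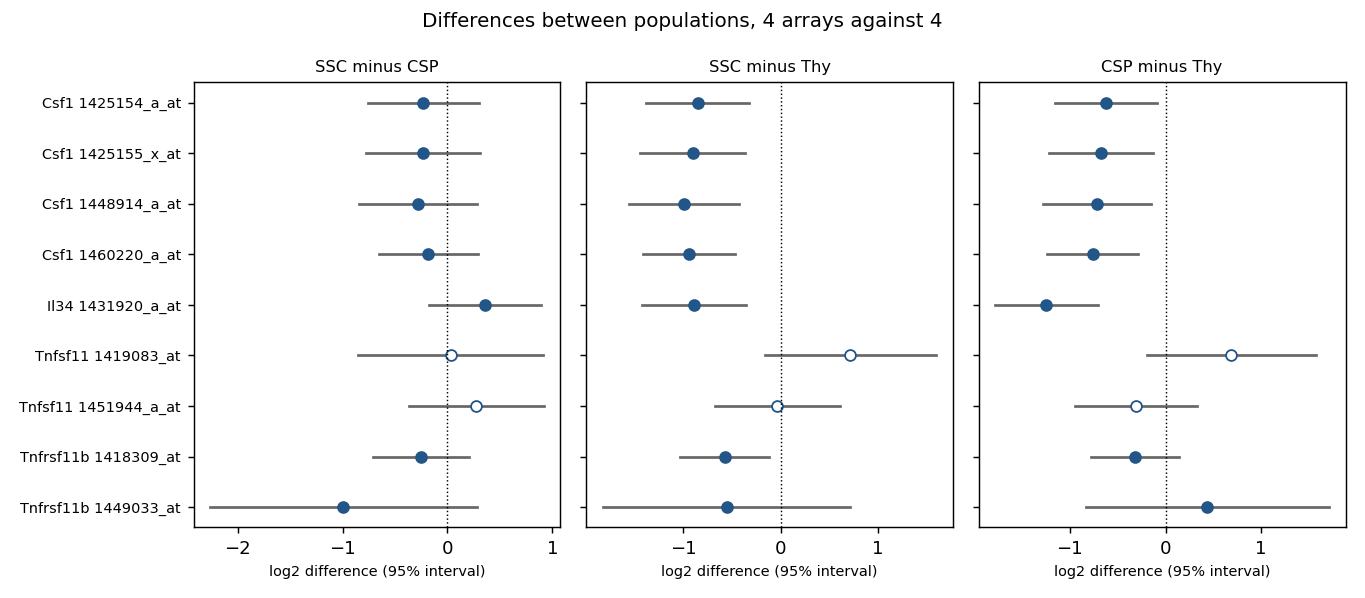
Log2 differences between populations for the 9 probe sets, with 95% intervals from limma over every single-symbol probe set, 4 arrays against 4. Open points are the Tnfsf11 probe sets, which did not pass the filter. The Il34 and Csf1 intervals lie below 0 for SSC minus Thy and for CSP minus Thy, and all intervals cross 0 for SSC minus CSP.

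The comparison that the study was designed for, arrays labelled JUN against -JUN, gave no call for any member gene. In SSC, CSP, Thy and their average, 0 of 12516 genes passed, which is 0% in each, with limma. At an unadjusted p under 0.05 there were 813 genes in SSC (6.5%), 288 in CSP (2.3%), 380 in Thy (3.04%) and 1569 in the average (12.5%). Each comparison within a population set 2 arrays against 2. Without mouse 7, labelled JUN, 282 genes passed in SSC, 175 in Thy and 495 on average, and no member gene was among them. Each JUN group is then 1 array, all from mouse 4, with its spread taken from the -JUN groups, so these counts set a single animal against the -JUN mice.

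Il34 had higher values in arrays labelled JUN in SSC and CSP, without overlap in either. The log2 difference was 0.61 ± 0.36 in SSC (adjusted p = 0.690), 0.77 ± 0.36 in CSP (adjusted p = 0.995) and 0.057 ± 0.36 in Thy (adjusted p = 0.993). The average over the 3 populations was 0.48 ± 0.21, with a 95% interval of 0.021 to 0.94 and an adjusted p of 0.396. An absence of overlap in this direction was common, at 22.7% of all genes in SSC, 19.3% in CSP and 17.9% in Thy. In the same arrays, the poly-A controls averaged 10.54 and 9.39 in SSC labelled JUN, against 8.08 and 8.65 in SSC labelled -JUN, and 10.63 and 11.04 in CSP labelled JUN, against 9.38 and 10.18 in CSP labelled -JUN. With these controls as a covariate, the differences of Il34 in SSC and CSP stayed positive and did not pass. Whether the controls' levels caused any of them was not tested. Without mouse 3 the differences of Il34 were 0.61 in SSC, 1.05 in CSP and -0.16 in Thy. Without CSP labelled JUN replicate 2 the difference in CSP was 0.36, and without replicate 1 it was 1.18.

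For Csf1 the largest difference by label was in Thy. It was 0.64 ± 0.40 there (adjusted p = 0.985), without overlap, as for 17.9% of all genes in this direction. It was 0.40 ± 0.40 in SSC (adjusted p = 0.761) and 0.20 ± 0.40 in CSP (adjusted p = 0.995). The average was 0.41 ± 0.23 (adjusted p = 0.421). The size depended on the probe set. By 1460220_a_at the differences were 0.33 in Thy, 0.044 in SSC and 0.041 in CSP, with an average of 0.14. The averages were 0.49 by 1425154_a_at and 0.47 by 1425155_x_at. Single arrays turned the direction in SSC and CSP, and moved the other values. Without Thy labelled JUN replicate 1 the difference in Thy was 0.38, and without SSC labelled -JUN replicate 3 the average was 0.25. Without SSC labelled -JUN replicate 3 the difference in SSC was -0.075, and without CSP labelled JUN replicate 2 it was -0.18 in CSP.

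Tnfrsf11b, by its brighter probe set, differed by -0.21 ± 0.33 in SSC, 0.20 ± 0.33 in CSP and -0.24 ± 0.33 in Thy, at adjusted p of 0.846, 0.995 and 0.985. The average was -0.082 ± 0.19 (adjusted p = 0.840), with a 95% interval of -0.50 to 0.34. The dimmer probe set 1449033_at read 5.54 and 7.19 in SSC labelled JUN, against 7.97 and 7.75 in SSC labelled -JUN, without overlap, as 15.7% of all genes did in the lower direction. In CSP it read 8.31 and 7.11 in arrays labelled JUN, against 8.78 and 8.21 in arrays labelled -JUN, and in Thy 5.39 and 8.31 in arrays labelled JUN, against 8.97 and 7.996 in arrays labelled -JUN. The mean was lower in arrays labelled JUN in each population, by -1.50, -0.79 and -1.64, with an average of -1.31 ± 0.51 at an adjusted p of 0.460 over every single-symbol probe set. The lowest 2 values, both of mouse 4, carried most of this.

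For Tnfsf11 the values with the label JUN depended on the probe set as well. The probe set 1451944_a_at read 7.21 and 6.01 in SSC labelled JUN, against 5.51 and 5.62 in SSC labelled -JUN. In CSP it read 6.02 and 6.25 in arrays labelled JUN, against 5.35 and 5.63 in arrays labelled -JUN, and in Thy 6.85 and 5.80 in arrays labelled JUN, against 5.81 and 6.03 in arrays labelled -JUN. The arrays did not overlap in SSC and CSP, as for 22.7% and 19.3% of all genes in this direction, the differences were 1.05, 0.64 and 0.41, and the average was 0.70 ± 0.25 (adjusted p = 0.460 over every single-symbol probe set). The probe set 1419083_at differed by 0.067 in SSC, 0.70 in CSP and -0.28 in Thy, with overlap in all 3. All of these values lay below the array medians.

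Whether the difference by label varied between populations was tested with an interaction term. None of the 3 member genes passed, each with an adjusted p of 0.9997. Over all genes 0 passed, and at an unadjusted p under 0.05 there were 144 genes, 1.15% of those tested. The absence of a difference for Il34 in Thy beside those in SSC and CSP therefore did not stand out from the spread of the arrays.

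**Figure D4:**
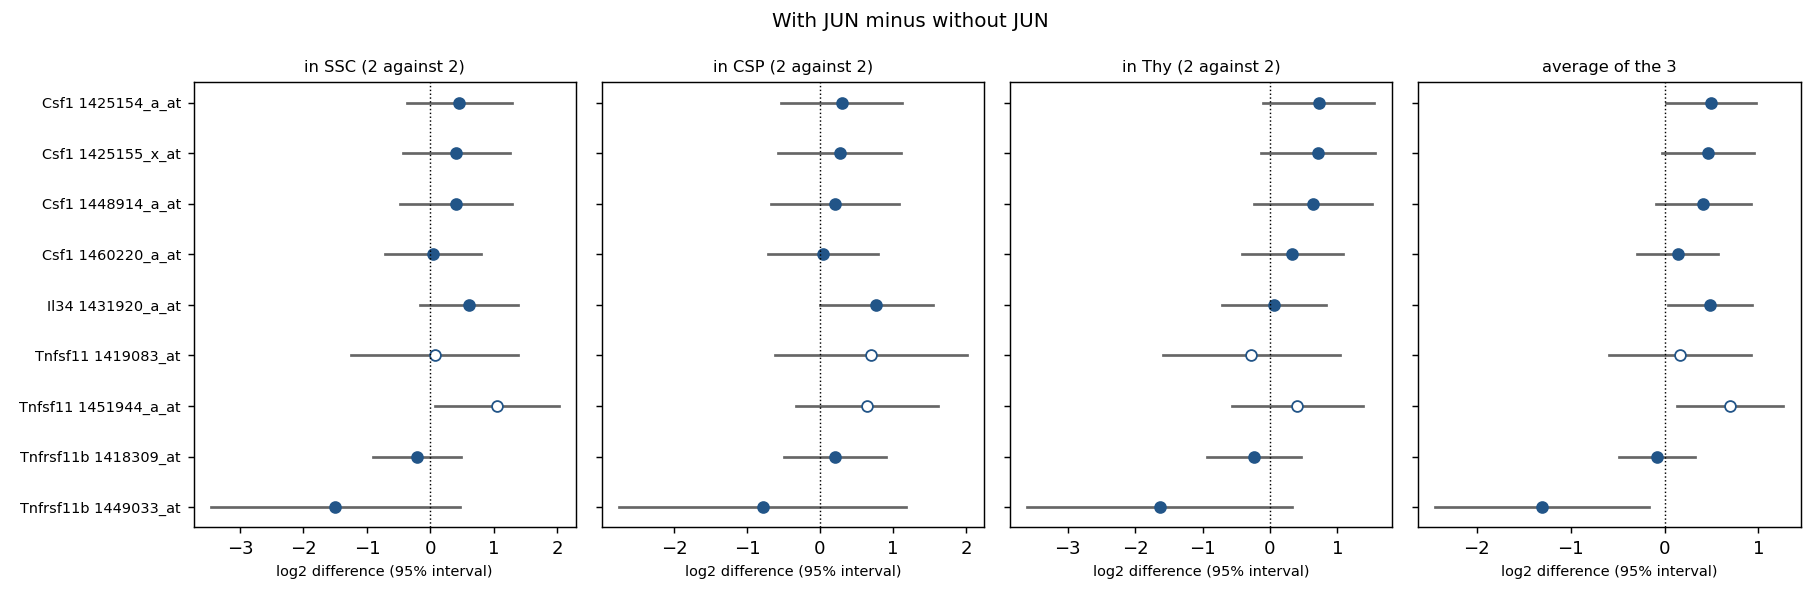
Log2 differences of arrays labelled JUN minus arrays labelled -JUN for the 9 probe sets, in each population and averaged, with 95% intervals from limma over every single-symbol probe set. Open points are the Tnfsf11 probe sets. Intervals within populations are wide, at 2 arrays against 2, and only Il34, 1425154_a_at of Csf1, 1451944_a_at of Tnfsf11 and 1449033_at of Tnfrsf11b have an averaged interval clear of 0.

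The receptors of these ligands are found on osteoclast precursors. Csf1r, the receptor of CSF1 and interleukin 34, lay between 7.19 and 8.88 by its brightest probe set, and Tnfrsf11a, which encodes RANK, between 6.08 and 7.67. Of 14 macrophage and monocyte genes measured, 7 were above the array median in no array, and the mean of the list was between 6.71 and 7.23 in every array. Of 14 osteoclast genes measured, 5 were above the median in no array. Ctsk, the collagen-degrading protease of osteoclasts that other bone cells also make, was at 11.81 to 12.60, and Acp5, the tartrate-resistant phosphatase of osteoclasts, at 7.84 to 9.75.

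Of 9 genes tested from the receptors of RANKL and CSF1 and their signal chain, 0 passed in any comparison. Their median difference was -0.37 for SSC minus Thy, beside -0.091 over all genes, and -0.39 for CSP minus Thy, beside -0.041. Relb, a subunit of the noncanonical NF-kB factor that acts below RANK, differed by -1.08 ± 0.31 between SSC and Thy (adjusted p = 0.141). For the label JUN the median was 0.52 in SSC, beside 0.079 over all genes, 0.16 in CSP, beside 0.068, and 0.0064 in Thy, beside 0.036. Rela, the canonical NF-kB subunit, differed in SSC by 1.10 ± 0.43 (adjusted p = 0.690).

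Among 21 tested genes of other stromal signals to osteoclast precursors, 1 passed, as lower in CSP than in Thy, where 0.903% of all genes did so. This was Sema3b, a secreted semaphorin, at -1.58 ± 0.33 (adjusted p = 0.0441). Ccl2, a chemokine that draws monocytes, differed by -1.10 ± 0.21 between SSC and Thy (adjusted p = 0.0514), and Sema3a, a semaphorin that restrains osteoclast formation in mice, by 1.14 ± 0.25 between CSP and Thy (adjusted p = 0.0594). Of the 9 osteoclast genes tested, Itgb3, an integrin subunit of osteoclasts and other cells, was lower in CSP than in Thy (-1.29 ± 0.26, adjusted p = 0.0373), and the other 8 did not pass. None of these lists had a gene that passed for the label JUN in a population or on average.

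Genes whose pattern over the 12 arrays was most like that of a member were looked up by Pearson's r, which is given as a description since the arrays share mice and RMA. For Csf1 they were Plscr3 (r = 0.972), Cchcr1 (0.971), Col5a3 (0.964), Tnks1bp1 (0.961) and Ube3b (0.952). For Il34 they were Tinagl1 (r = 0.942), Ttyh2 (0.936), Arrb2 (0.936), Cfl1 (0.931) and Esam (0.926). Esam is an adhesion protein of endothelial junctions. Between CSP and Thy it differed by -1.67 ± 0.28 (limma, adjusted p = 0.0142) and Tinagl1 by -2.53 ± 0.37 (adjusted p = 0.0075). Both have the direction of Il34, for likeness to which they were picked. Of the 7 endothelial genes tested, 5 had higher means in CSP than in Thy and 2 lower, and 1 passed, Esam as lower. Their list means were 7.93 to 9.06 in CSP arrays and 7.65 to 8.57 in Thy arrays. With the population means removed, r with Il34 was 0.84 for Esam and 0.82 for Tinagl1. For Tnfrsf11b the closest were Zfp940 (r = 0.930), Gatd1 (0.862), Cfb (0.854), P2rx4 (0.846) and Rita1 (0.843). For Tnfsf11, by 1419083_at, they were Mamdc2 (r = 0.883), Pqbp1 (0.864), Kcnq5 (0.847), Col9a1 (0.833) and Pdrg1 (0.827). Between the member genes themselves, r was 0.503 for Csf1 with Tnfrsf11b and 0.375 for Il34 with Tnfrsf11b, with 0.753 for Csf1 with Il34.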

How the data were processed

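The authors deposited 1 log2 expression value for each probe set and array, and the submitters' processing notes name RMA. Which software and settings they ran is not given in the sources used here. RMA corrects background, brings all arrays to 1 distribution and combines the probes of a set, so it shrinks differences between dim probe sets and cannot show a change in total RNA. Values ran from 3.20 to 15.99. Scanner files were not analysed here, and the number of arrays limits the precision. Of 45101 probe sets, 64 controls were left out. The platform annotation gave 34945 of the other 45037 a single symbol, 932 several and 9160 none, and only those with a single symbol entered a test.

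A probe set was kept when above the median of its array (7.65 to 7.76) in at least 2 arrays, and the one with the highest mean stood for its gene. limma 3.58.1 (R 4.3.3) gave moderated two-sided tests, and p-values were adjusted by Benjamini-Hochberg over 12516 genes at a threshold of 0.05. Label effects came from a model of the 6 group means (6 residual degrees of freedom), which pools the spread of all groups. Population effects came from a fit with terms for population and arm (8 residual degrees of freedom). Errors of differences are standard errors of the fit. The scripts were tested on simulated data.

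Arrays of 1 mouse pair the populations, and the mouse was tried as a fixed block and as a random block. Deviations of arrays of 1 mouse from mean levels correlated at -0.333 to 0.406. These were not the means of the single groups, from which the 2 arrays of a group deviate by equal and opposite amounts. The consensus correlation of the random block was 0.0047 in the fit of population and arm. Between the arms, equal replicate numbers mark different mice. By their titles the arrays of a group are from different mice, and the p-values cover the variation among these few animals alone. Members, the 21 gene lists and the tests were chosen with earlier results of these data known. Named are the members, the 5 genes most like each, markers, Jun, and per list up to 4 genes of lowest p between populations and 2 by label; Xist was added after its values were seen. Other settings are in the closing section.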

Additional observations from a re-analysis of the deposited data

Results flagged for a closer look

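Among the 27 sets of 4 arrays formed by the 9 probe sets and 3 populations, 2 had an array far from the other 3; the gap was more than Dixon's 95% critical share of the range. Chance flags about 1 set in 20. For 1425154_a_at of Csf1 in CSP, replicate 2 labelled JUN read 11.22, while the other 3 CSP arrays read 10.58 to 10.69. For 1418309_at of Tnfrsf11b in CSP, replicate 1 labelled -JUN read 10.91, while the other 3 read 11.40 to 11.49. The first array is from mouse 7 and the second from mouse 3.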

How the results depend on the processing

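Of 28 results on member genes, 24 were counted as unchanged in all alternatives that used all arrays of the comparison or 1 arm. For Csf1, Il34 and Tnfrsf11b, unchanged means the same direction and the same side of the threshold. For Tnfsf11, which was not tested, it means a shift smaller than the SD within groups, and direction was not checked. The fit over every single-symbol probe set, in which Il34 also lost its call in CSP against Thy, was not among these alternatives. The exceptions follow, and their causes were not tested. Il34 in CSP against Thy no longer passed with the poly-A covariate (-1.10), with a covariate for 3' minus 5' control signal chosen after seeing the data (-1.18), with the mouse as a fixed replicate block (-1.24), with the arrays of the 2 populations only (-1.24), with arrays labelled -JUN only (-1.60) or JUN only (-0.89); it passed in SSC against Thy with array quality weights (-1.01). Tnfrsf11b reversed for JUN in CSP with the mean of its probe sets (-0.29), with 1449033_at (-0.79) and with the poly-A covariate (-0.0735), and in CSP against Thy with the mean (0.059) and with 1449033_at (0.44).

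Genes passing, 49 for SSC against Thy, became 24 without the filter, 75 with probe-set means, 74 with median-centred arrays and 572 with weights. They became 0 with the poly-A covariate, 4 with the mouse as a fixed block and 16 with the 2 populations only. With arrays labelled -JUN or JUN only they became 19 and 0. The 54 for SSC against CSP became 156 with weights, 2 with the 3' minus 5' covariate and 8 with the fixed mouse block. With arrays labelled -JUN or JUN only they became 1 and 5. The 124 for CSP against Thy became 321 with weights, 46 with the poly-A covariate, 8 with the 3' minus 5' covariate and 50 and 0 with arrays labelled -JUN or JUN only. The 0 counts for JUN stayed at 0 in all of these. Beyond Il34 the fixed block changed no call of a member gene. With the mouse as a random block, 49 genes passed for SSC against Thy and 54 for SSC against CSP, and no member call changed.

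Leaving out 1 array or mouse gave 17 to 155 genes for CSP against Thy, 7 to 62 for SSC against CSP, 3 to 304 for SSC against Thy, and for JUN 0 to 495 on average, 0 to 282 in SSC, 0 to 2 in CSP and 0 to 175 in Thy, the most being without mouse 7 except in CSP (without mouse 4). Il34 ran from -1.55 to -0.96 in CSP against Thy and from -0.16 to 0.27 for JUN in Thy. Csf1 ran from -0.18 to 0.59 for JUN in CSP and -0.075 to 0.88 in SSC. For JUN, Tnfrsf11b ran from -0.18 to 0.015 on average, -0.086 to 0.49 in CSP and -0.49 to 0.074 in SSC, and Tnfsf11 from -1.16 to 0.60 in Thy.

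The replicate number as a block was run for JUN in CSP and Thy; the SSC arms share only number 1. Same-numbered arrays of the 2 arms correlated at -0.103 in CSP and -0.180 in Thy, the numbers do not mark a mouse across arms, and no member call changed. With 2 arrays a group, only large changes could pass.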
